A study of Mus musculus with 10 samples.

Results

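The kinesin genes were read across 3 germ cell fractions of the mouse testis, undivided testis and pooled somatic tissues. A gene was a member when its symbol began with Kif or Kifc followed by a digit, and 41 of the 18193 genes with a probe set of their own on either array design were members. By role, 15 were motors of the spindle and of cell division, 8 were motors of cilia and flagella, 14 were motors of cargo transport, and 4 (Kif12, Kif26a, Kif26b and Kif28) were in none of these lists. A member's probe sets numbered 104 in all, and 37 of the 41 members exceeded the detection floor in at least 1 group, as did 15698 of all genes.

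All animals were male C57BL/6 mice. Germ cells came from testes in their first wave of spermatogenesis and were separated by density on Percoll: spermatogonia were fraction 2 at day 8 of age, leptotene/zygotene spermatocytes fraction 5 at day 12, and pachytene spermatocytes fraction 8 at day 15. Whole testis and a mix of 11 somatic tissues (skin, muscle, spleen, kidney, lung, heart, brain, liver, colon, intestine and stomach) were both from day 15. The fractions were meant to be enriched for their cell type and were not pure, and age and cell type changed together between them. Marker sums beside those of whole testis are given below. The sources used here do not give the number of animals behind a sample. Each of the 5 groups had 2 samples, but those numbered 1 were run on a first array design and those numbered 2 on a second one with other probe sets, so every probe set was read on 1 array per group.

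Kinesins are motor proteins that use ATP to step along microtubules or to take microtubules apart from their ends. Germ cells use them for spindle assembly, chromosome movement and cytokinesis in dividing cells, for building the sperm flagellum by intraflagellar transport, and for carrying vesicles and organelles. The study's title places these samples in a search for genes that act in chromosome segregation at the first meiotic division, for which spindle motors are textbook examples.

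Levels below are scaled array signals on a linear scale, and differences are log2 differences of these signals between 2 arrays of the same design. A signal at or under the floor (87.6 on the first design and 47.0 on the second) was set to the floor, and a fold against it is a lower bound. A difference of at least 4-fold was called, and only called differences are described as a rise or a fall. Values are called higher or lower when they passed a 95% limit, set from 100 probe sets that both designs carried: 0.35 for leptotene/zygotene against spermatogonia, 0.41 for pachytene against leptotene/zygotene, 0.46 for pachytene against whole testis and 0.57 for whole testis against the somatic mix. That limit holds no spread between different probe sets of a gene. The 100 probe sets named no member. The limit was not adjusted for signal level, so it may be too narrow for signals near the floor. The error behind it, between the same probe sets, was 0.18, 0.21, 0.24 and 0.29 in the same order. Between different probe sets of a gene the error was 0.42, 0.90, 0.75 and 0.87, over 2606 genes read on both designs. The latter are errors and not limits. A 95% limit set from them would be wider than these figures, and fewer values would be called higher or lower. With 1 array per group and probe set there is no p-value for these differences. Probe set signals of different genes are not compared with each other.

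**Figure D1:**
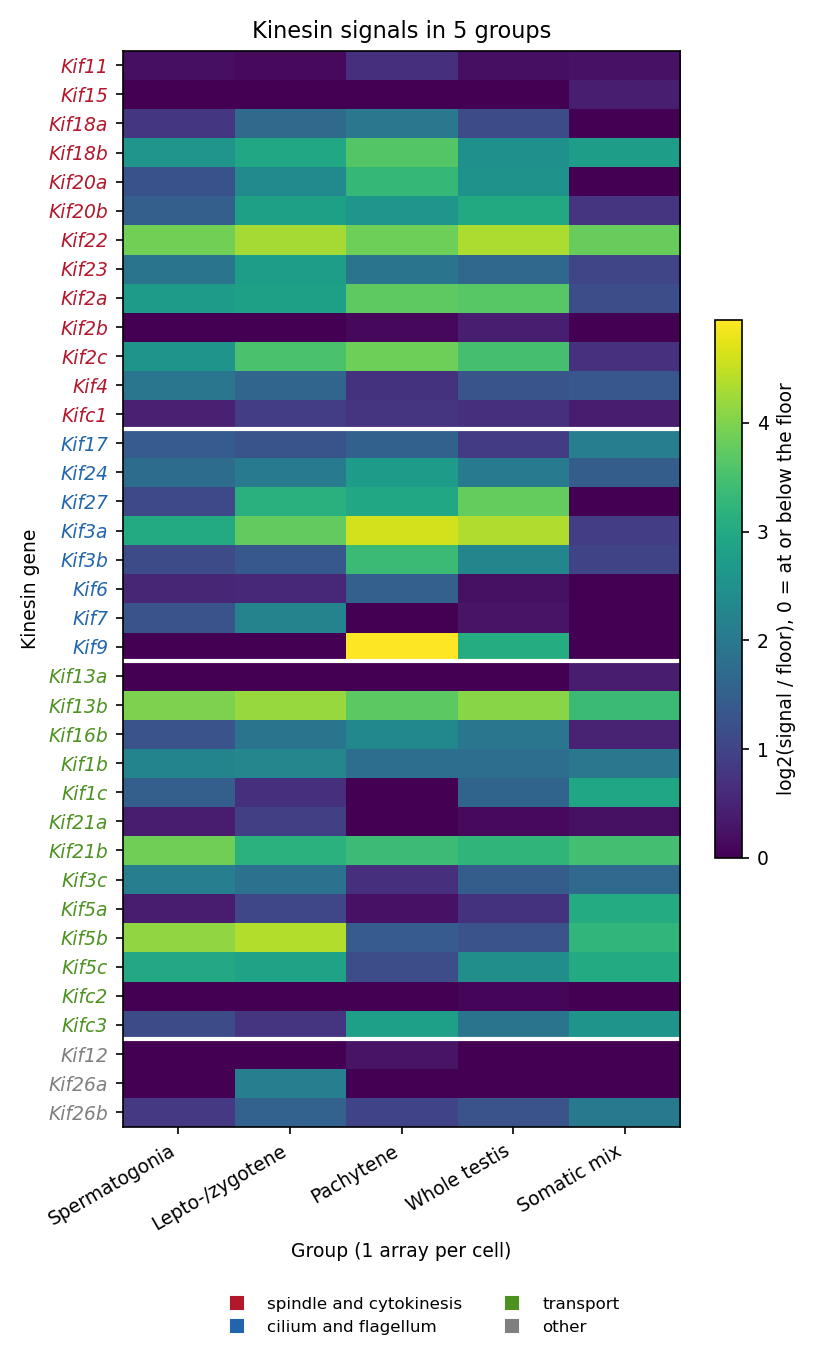
Signals of the 37 kinesin genes above the floor in some group, as log2 of signal over the floor of the gene's array design (87.6 or 47.0); each column is a group and each cell is 1 array. Rows are grouped by role, and a reader should follow each row across the columns: Kif9 leaves the floor only in pachytene cells and whole testis, while Kif5b is brightest in the earlier germ cell fractions.

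The spindle motors were mostly higher in leptotene/zygotene cells than in spermatogonia. Of the 11 measured, 8 were higher, 0 were lower and 0 reached 4-fold, with a median log2 difference of 0.43. For the genes of the whole array set, 24.1% were higher and 22.2% lower, with a median of 0.02. Markers of somatic testis cells moved at the same step: 4 of 4 Leydig cell markers were lower (summed signal 7725 in spermatogonia and 4049 in leptotene/zygotene cells), 4 of 4 peritubular cell markers were lower (18070 and 7365), and 4 of 4 macrophage markers were higher (640 and 1304). Their part in the spindle motor differences was not tested. The count of higher spindle motors ranged from 5 to 8 of 11 over the scalings tried, and 1 was lower under quantile normalization. Promoters of these motors are shown first, because 8 members were higher in the same comparison.

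Of the 41 members, 33 had at least 1 promoter window in the RefSeq table (build GRCm38.p6). A window runs from 250 bases before the start of the gene to 50 after it. Searched on both strands, the letters TTTGAA, the core of the cell cycle genes homology region (CHR), stood in 11 of 14 spindle motors with a window. They stood in 6 of the 7 such motors that were higher in leptotene/zygotene cells, and in 17.9% of all 32851 windows. They stood in 1 of 8 cilium motors and in 1 of 8 transport motors. A member was counted when any of its windows held the letters, whereas the 17.9% is over single windows. Members with several windows therefore had more places to match. The CHR is known from genes that are active late in the cell cycle. The 6 stretches of 50 bases below hold the match nearest the start in capitals, 5′ to 3′ in the direction of the gene, so that a match on the other strand reads TTCAAA.
Kif18b, chr11:102925094-102925143, minus strand: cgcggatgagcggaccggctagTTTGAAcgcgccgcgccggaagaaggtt
Kif20b, chr19:34922343-34922392, plus strand: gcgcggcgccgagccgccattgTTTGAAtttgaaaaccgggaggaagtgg
Kif22, chr7:127042410-127042459, minus strand: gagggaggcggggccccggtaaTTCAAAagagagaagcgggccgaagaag
Kif23, chr9:61946770-61946819, minus strand: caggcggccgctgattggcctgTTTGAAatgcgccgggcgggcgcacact
Kif2c, chr4:117178848-117178897, minus strand: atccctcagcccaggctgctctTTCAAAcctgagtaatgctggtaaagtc
Kifc1, chr17:33890605-33890654, minus strand: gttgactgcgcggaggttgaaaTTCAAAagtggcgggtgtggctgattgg
The first base of the match lay 4 bases after the start in Kif18b, 8 after it in Kif20b, 3 after it in Kif23 and 2 after it in Kifc1, counting the first transcribed base as 1. In the other 2 genes it lay before the start, at -17 in Kif22 and -103 in Kif2c. A match describes the letters and is not a measured binding site. Counted in the same way, the CCAAT letters stood in 9 of 14 spindle motors and 5 of 8 cilium motors, against 37.4% of all windows. The MYB core AACGG stood in 5 of 14 spindle and 3 of 8 cilium motors against 17.4%, and the E2F letters TTCCCGCC in 0 of 14 spindle motors against 2.19%.

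Kif20b, a kinesin-6 of the central spindle, had scaled signals of 134 in spermatogonia, 331 in leptotene/zygotene cells, 285 in pachytene cells, 379 in whole testis and 79.7 in the somatic mix. It was 2.47-fold higher in leptotene/zygotene cells than in spermatogonia, the largest such difference among the spindle motors, and the pachytene signal lay within the limit of the leptotene/zygotene one. Kif20a, the kinesin-6 that carries the chromosomal passenger complex to the midzone, read 208, 447, 865, 505 and 56.4 in the same order of groups. It was 2.15-fold higher in leptotene/zygotene cells than in spermatogonia, and 1.94-fold higher again in pachytene cells, its highest group. Kif23, the kinesin-6 of the centralspindlin complex, read 330, 598, 330, 280 and 181. It was highest in leptotene/zygotene cells, 1.81-fold above both spermatogonia and pachytene cells, whereas Kif20a was highest at the pachytene stage.

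Kif18a, which dampens the movements of aligned chromosomes, read 151, 288, 348, 191 and 57.5 in spermatogonia, leptotene/zygotene, pachytene, whole testis and the mix. It was 1.90-fold higher in leptotene/zygotene cells than in spermatogonia and did not pass the limit between leptotene/zygotene and pachytene cells. Its relative Kif18b read 280, 362, 577, 263 and 322. Kif18b was highest in pachytene cells, 2.19-fold above whole testis, and whole testis and the mix lay within the limit of each other.

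The kinesin-13 motors take microtubules apart at their ends. Kif2c, the form at centromeres, read 518, 1005, 1266, 985 and 144 on its brightest probe set. On that probe set it was 1.94-fold higher in leptotene/zygotene cells than in spermatogonia, a log2 difference of 0.96. Its other probe sets gave 0.46 and -0.36, so they disagreed in direction. Kif2a, which acts at spindle poles, read 575, 619, 1157, 1107 and 199.7 on its brightest probe set, and was 1.87-fold higher in pachytene than in leptotene/zygotene cells. Another Kif2a probe set (1452499_a_at) read 132, 184, 885, 284 and 124, and its log2 difference between pachytene and leptotene/zygotene cells was 2.27 against 0.90 on the brightest one. The brightest Kif2a probe set therefore stayed under 4-fold at this step and the other passed it. Kif2b, another kinesin-13, read 7.46, 21.9, 50.5, 62.5 and 6.50, and passed its floor of 47.0 only in pachytene cells and whole testis.

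The remaining spindle motors included both bright and dim signals against their floors. Kif22, the chromosome-bound motor Kid, read 1301, 1716, 1273, 1770 and 1224. Its highest and lowest groups were 1.45-fold apart on that probe set (1437716_x_at), whose name marks probes that can match other transcripts. Another Kif22 probe set (1451128_s_at) read 245, 373, 264, 341 and 153. Its log2 difference between whole testis and the mix was 1.16, against 0.53 on the brightest one and 0.24 on a dimmer one. Kif11, the bipolar kinesin-5 that pushes spindle poles apart, read 101, 95.7, 139, 101 and 104, and was 1.45-fold higher in pachytene than in leptotene/zygotene cells. A different Kif11 probe set read 133 in leptotene/zygotene and 80.0 in pachytene cells, in the other direction. Kif4, an X-linked chromosome-arm motor, read 339, 268, 145, 214 and 223. It was 1.84-fold lower in pachytene than in leptotene/zygotene cells and was lowest there. Kifc1, a minus-end motor that gathers spindle poles, read 121, 162, 148, 140 and 114. Kifc1 has the near copy Kifc5b, whose own probe set stayed below the floor in all 5 groups, so reads of the pair by shared probes are uncertain. Kif15, which can back up Kif11, read 12.0, 9.73, 18.4, 14.2 and 62.6 and passed the floor only in the mix. Kif14, a motor of cytokinesis, stayed below the floor in all groups.

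Between leptotene/zygotene and pachytene cells the spindle list was mixed. Of 12 measured motors 4 were higher (Kif11, Kif18b, Kif20a and Kif2a), 3 were lower (Kif22, Kif23 and Kif4) and 0 reached 4-fold, where 30% of all genes were higher and 44% lower. The list's median log2 difference was 0.19 against -0.22 over all genes, and it stayed above 0 in every scaling tried, between 0.10 and 0.59. Proliferation markers, 6 of which were on the arrays, summed to 6024 in spermatogonia, 9441 in leptotene/zygotene cells, 8175 in pachytene cells, 10549 in whole testis and 5194 in the mix. Single markers moved apart between leptotene/zygotene and pachytene cells: 2 were higher and 3 lower, with a median log2 difference of -0.56. Ccna2 fell 4.34-fold and Mki67 was 3.32-fold lower, whereas Birc5 was 2.56-fold higher. The part of proliferation in the spindle motor differences was not tested.

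**Figure D2:**
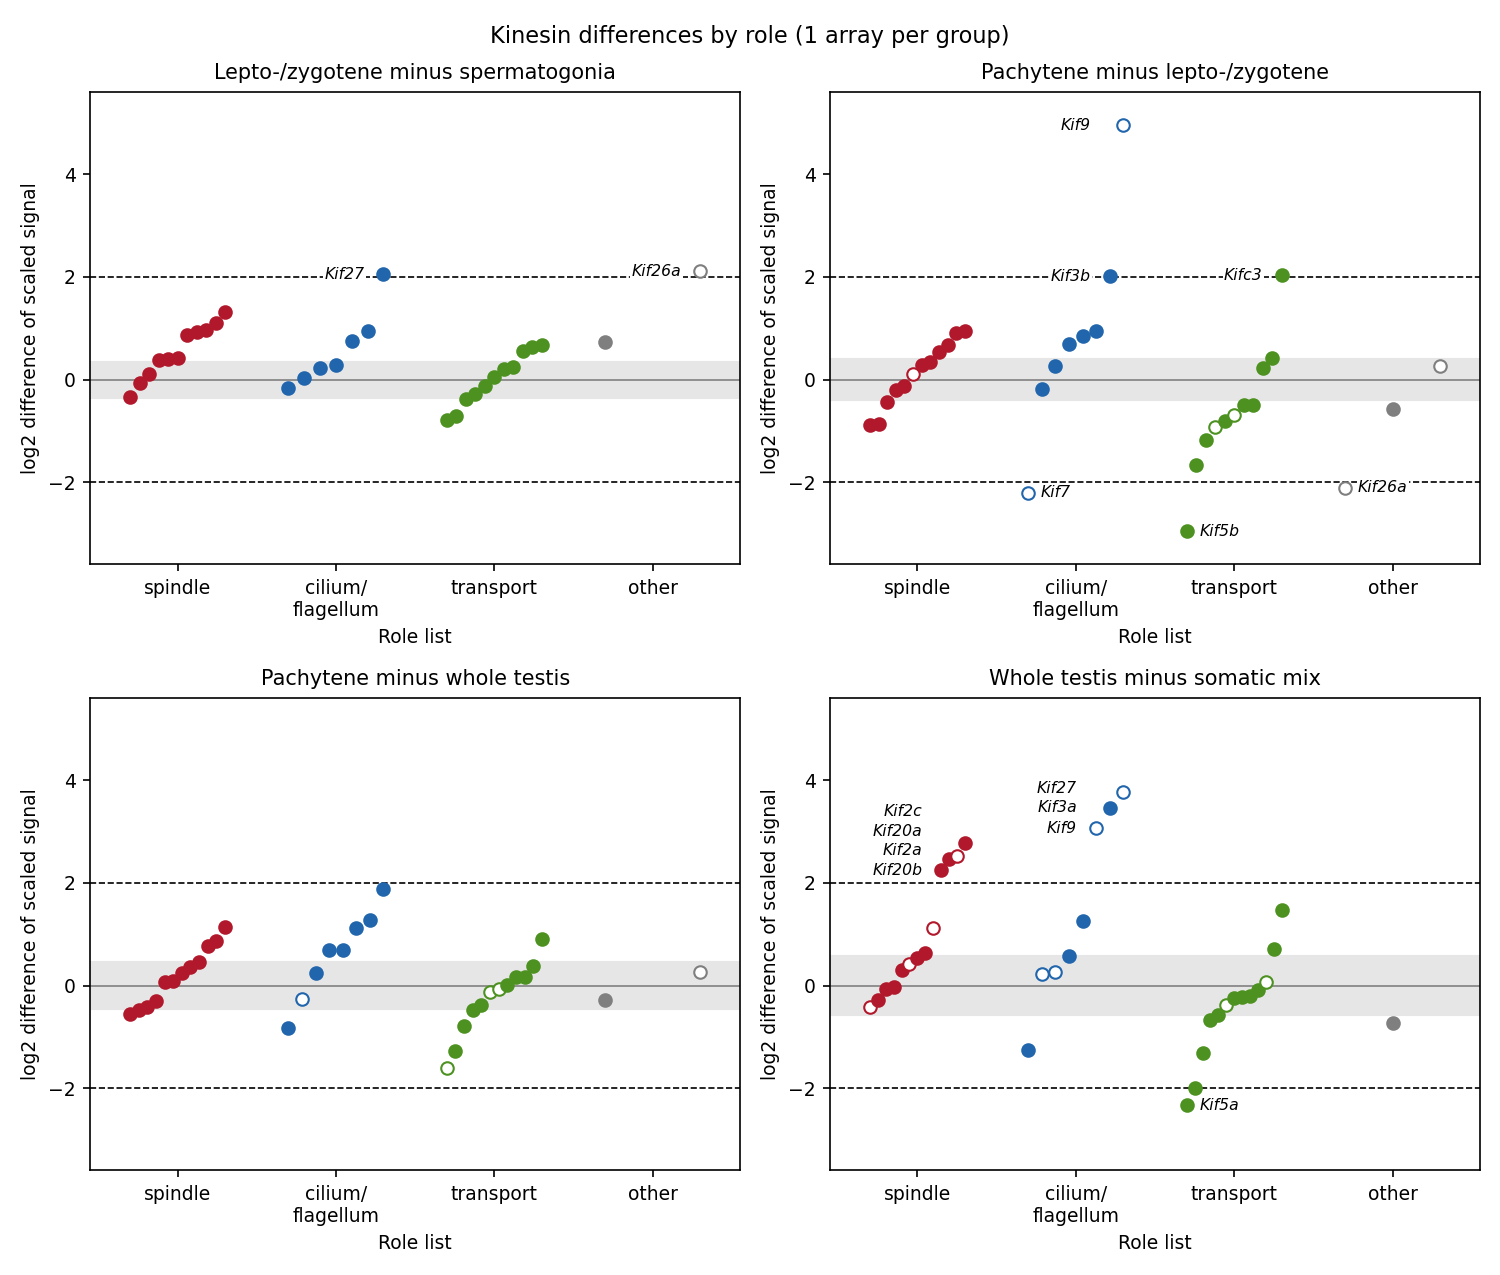
Log2 difference of scaled signal for each measured kinesin gene, by role, in 4 comparisons of 1 array against 1 array. Open points are lower bounds against the floor, the grey band is the 95% limit (0.35, 0.41, 0.46 and 0.57 in panel order), dashed lines mark 4-fold, and named genes are those past it; the cilium motors reach from Kif7 below -2 to Kif9 at 4.95 in the pachytene panel.

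The cilium and flagellum motors held the largest rise of the family. Of 8 measured between leptotene/zygotene and pachytene cells, 2 rose at least 4-fold (Kif9 and Kif3b), 1 fell (Kif7), 5 were higher and 1 lower in all, with a median log2 difference of 0.77. Called rises and falls made up 8.7% and 9.34% of all genes in this comparison. The median of the cilium list stayed between 0.77 and 1.26 over the scalings tried, but it depended on the probe sets and design used. It was 0.31 with means over probe sets (3 of 7 higher) and 0.47 with plain probe sets only. On the first design alone it was 1.43, with 3 of 4 higher. On the second design alone it was -0.19, with 2 of 5 higher and 2 lower. In bulk fractions, more cells of a type and more RNA per cell cannot be told apart.

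The promoter stretches of Kif9, Kif24 and Kif3a are shown because these 3 of the 5 cilium motors that were higher in pachytene cells held GTTGCC, the half-site of the X-box that RFX factors bind at many cilium genes. The letters stood in 4 of 8 cilium motors, 3 of 8 transport motors and 3 of 14 spindle motors with a window, and capitals mark them. Members were counted on any of their windows, against 12.5% of all windows taken singly.
Kif9, chr9:110476945-110476994, plus strand: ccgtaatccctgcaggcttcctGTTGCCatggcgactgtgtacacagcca
Kif24, chr4:41464827-41464876, minus strand: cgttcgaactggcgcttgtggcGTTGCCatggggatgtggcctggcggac
Kif3a, chr11:53567249-53567298, plus strand: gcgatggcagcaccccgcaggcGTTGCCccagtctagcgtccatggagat
The first base lay 10 bases after the start in Kif9, and before it in the other 2, at -6 in Kif24 and -98 in Kif3a. Kif17 also held GTTGCC and was not higher in pachytene cells. Kif3b and Kif6 were higher in pachytene cells with no such letters in their windows. Kif3a was counted as higher from the first design, at a log2 difference of 0.84, whereas its brightest second-design probe set gave -0.80. The cyclic AMP response letters TGACGTCA stood in 3 of 33 members with a window (Kif17, Kif18a and Kif5c) against 1.79% of all windows.

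Kif9, a kinesin-9 motor of the flagellum's central apparatus, read 62.7 in spermatogonia, 78.8 in leptotene/zygotene cells, 2709 in pachytene cells, 732 in whole testis and 76.4 in the mix (probe set 1420395_a_at). Only pachytene cells and whole testis passed the floor. Kif9 rose at least 30.9-fold from leptotene/zygotene to pachytene cells, and was 3.70-fold higher in pachytene cells than in whole testis of the same age. In whole testis it was at least 8.35-fold above the mix. Its class partner Kif6 read 67.9, 69.2, 134, 55.003 and 12.0. Kif6 was highest in pachytene cells, 1.94-fold above leptotene/zygotene cells.

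Kif3a and Kif3b are the motor subunits of heterotrimeric kinesin-2, which drives intraflagellar transport outward along the axoneme. Kif3b read 193, 226, 913, 422 and 177 (1420986_s_at). It rose 4.03-fold from leptotene/zygotene to pachytene cells, and its other probe sets that could be measured gave log2 differences of 1.03 and 2.85 against 2.01. Kif3a read 710, 1188, 2129, 1791 and 163 (1449841_at), and was 1.79-fold higher in pachytene than in leptotene/zygotene cells. The second array design gave another direction for Kif3a at this step, with 199.96 in leptotene/zygotene and 115 in pachytene cells. Whole testis exceeded the mix on both designs, by log2 differences of 3.46 and 2.03 on the brightest probe set of each. Dimmer Kif3a probe sets gave 0.53 (1420375_at, within the limit) on the first design and 0.82 (1455652_at) on the second. Kifap3, the non-motor subunit of the same complex, read 643, 617, 1060, 1126 and 408, and was 1.72-fold higher in pachytene than in leptotene/zygotene cells.

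Kif27 and Kif7 are the vertebrate relatives of the fly Hedgehog pathway kinesin Costal-2; Kif7 acts at the cilium tip in Hedgehog signalling, and Kif27 in motile cilia. Kif27 read 100.03 in spermatogonia, 413 in leptotene/zygotene cells, 362 in pachytene cells, 642 in whole testis and 6.51 in the mix (1445404_at, its 1 probe set). It rose 4.13-fold from spermatogonia to leptotene/zygotene cells, and in whole testis was at least 13.7-fold above the mix. It was the only member highest in whole testis beyond the limit. Kif7 read 114, 217, 12.4, 56.2 and 8.40 (1439637_at), with its peak in leptotene/zygotene cells, and fell at least 4.62-fold to pachytene cells, where it was below the floor.

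Kif24, which controls centriole capping before ciliation, read 159, 194, 313, 194 and 130, and was highest in pachytene cells on that probe set. A dimmer Kif24 probe set (1431937_at) was highest in whole testis, at 104 against 76.1 in pachytene cells. Kif17, the homodimeric kinesin-2, read 238, 214, 255, 159 and 381. It was the cilium motor that was lower in whole testis than in the mix, by 2.40-fold. On the probe set read it did not pass the limit between neighbouring germ cell fractions. Another Kif17 probe set (1419827_s_at) was higher in leptotene/zygotene cells than in spermatogonia, by a log2 difference of 0.57 against -0.16 on the probe set read.

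Markers were read to check the labels. The spermatogonial markers on the first design (7 genes, Kit among them) summed to 9441 in spermatogonia, 11020 in leptotene/zygotene cells and 1740 in pachytene cells, so they did not separate the first 2 fractions. In whole testis they summed to 4683. The 5 spermatocyte markers of that design (Sycp3 among them) summed to 2051, 5405 and 4223, against 6917 in whole testis and 157 in the mix. Between leptotene/zygotene and pachytene cells 2 of all 6 spermatocyte markers were higher and 3 lower, against 30% and 44% of all genes. Dmc1 fell at least 7.62-fold and Sycp1 was 1.95-fold lower, whereas Sycp2, on the second design, was 2.05-fold higher. The 7 pachytene markers on the arrays (Ldhc, Pgk2 and others) all rose between leptotene/zygotene and pachytene cells, and their summed signal was 258 in spermatogonia, 2920 in leptotene/zygotene cells, 51457 in pachytene cells, 29298 in whole testis and 466 in the mix. In spermatogonia all 7 were below the floor. In the pachytene fraction Sertoli cell markers summed to 5565 against 23534 in the leptotene/zygotene fraction, and 8 of 8 were lower. The 4 Leydig cell markers summed to 401 against 4049, whereas the 4 macrophage markers summed to 2815 against 1304. In the spermatogonia fraction Sertoli cell markers summed to 26607 against 18426 in whole testis, which was older. Leydig cell markers summed to 7725 against 2871 there, and peritubular markers to 18070 against 10139. Macrophage markers went the other way, at 640 against 2413. Sertoli and Leydig sums of the leptotene/zygotene fraction also exceeded those of whole testis, but its peritubular sum, 7365, did not. The part of these cells in the differences of the cilium and transport motors was not tested.

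**Figure D3:**
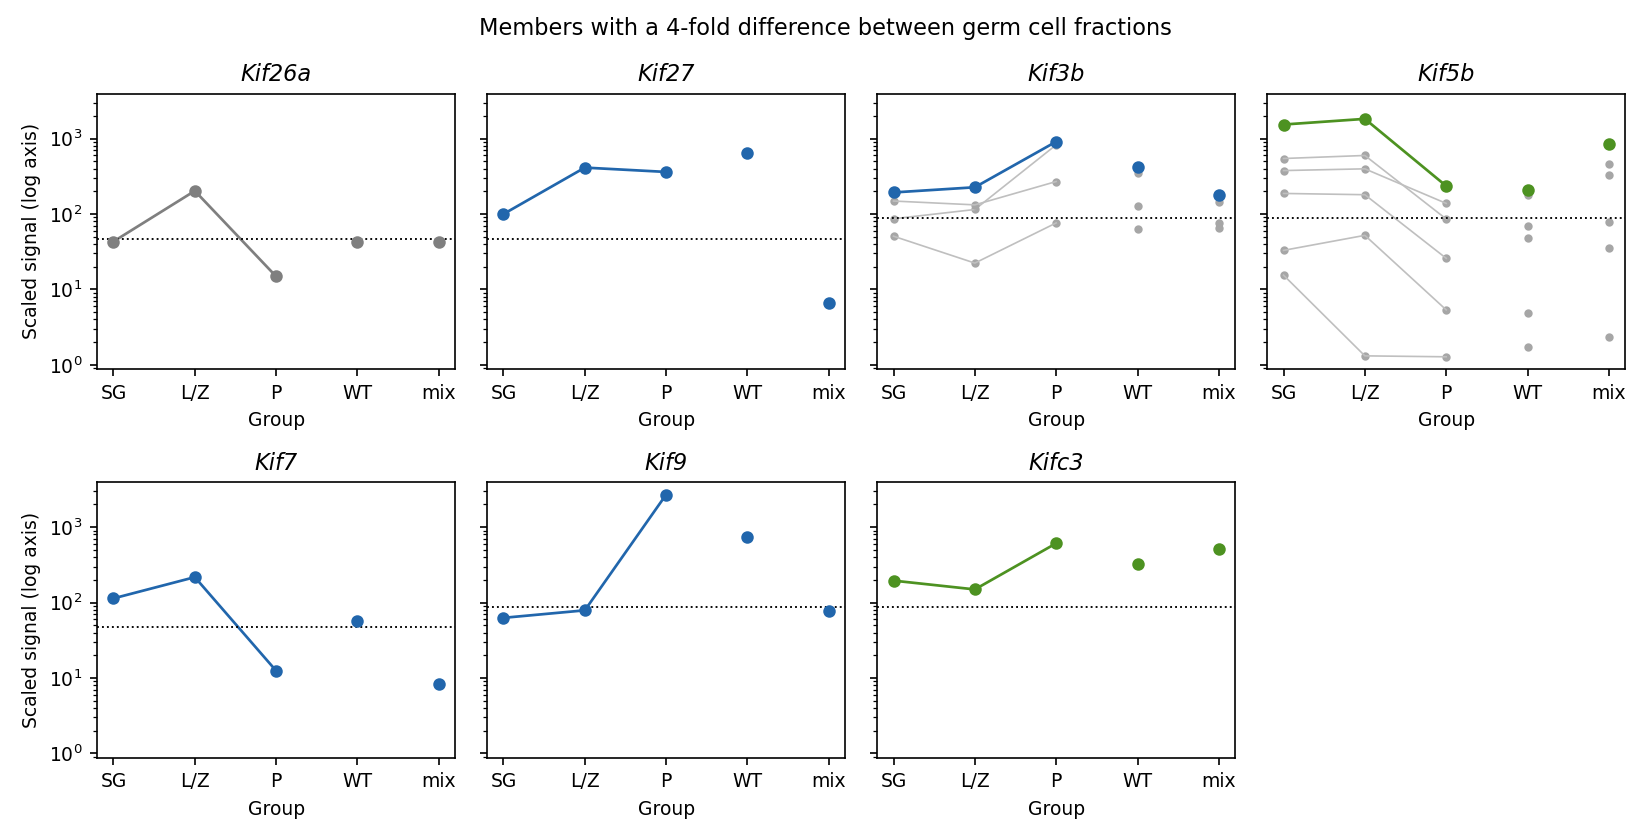
Scaled signals on a log axis for the 7 kinesin genes with a 4-fold difference between neighbouring germ cell fractions (SG spermatogonia, L/Z leptotene/zygotene, P pachytene, WT whole testis, mix somatic tissues); each point is 1 array, lines join the germ cell fractions, coloured points are the probe set read for the gene, grey points its other probe sets on either array design, and the dotted line is the floor of the design read for the gene. Kif9 rises from 78.8 to 2709 and Kif5b falls from 1830 to 236.

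The transport motors were mostly lower in pachytene than in leptotene/zygotene cells. Of 11 measured, 8 were lower, 2 were higher, 1 fell and 1 rose at least 4-fold, with a median log2 difference of -0.69 against -0.22 over all genes. Of all genes, 44% were lower and 30% higher, and 9.34% fell and 8.7% rose. The number of lower transport motors depended on the scaling, from 2 to 8, while the list's median stayed below 0 (from -0.83 to -0.11). Between spermatogonia and leptotene/zygotene cells 3 were higher and 3 lower of 11, near the 24.1% and 22.2% of all genes, and the sign of the median, 0.04, turned under other scalings, down to -0.08.

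Kif5b, the widely expressed kinesin-1 heavy chain that carries organelles and vesicles, read 1540 in spermatogonia, 1830 in leptotene/zygotene cells, 236 in pachytene cells, 211 in whole testis and 838 in the mix (1418430_at). It fell 7.77-fold from leptotene/zygotene to pachytene cells, the largest fall measured on the probe sets read for a gene. The 3 other Kif5b probe sets that could be measured gave log2 differences from -2.77 to -1.04, all in the same direction. Whole testis was 3.98-fold below the mix. The neuronal forms were lower in pachytene cells too. Kif5c read 370, 338, 106, 257 and 384 and was 3.18-fold lower in pachytene than in leptotene/zygotene cells, and Kif5a read 61.6, 97.6, 55.7, 77.5 and 389 and was 1.75-fold lower. Kif5a was highest in the mix, 5.02-fold above whole testis. Neuron markers also lay in the mix, where those on the first design summed to 1845 against 465 in whole testis, and 6 of the 7 measured were lower in whole testis. Their part in the Kif5a difference was not tested.

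Kifc3, a minus-end motor at cell junctions and in the Golgi, read 195, 149, 611, 327 and 520 (1416199_at), and rose 4.09-fold from leptotene/zygotene to pachytene cells. It ran against the rest of the transport list there, together with Kif16b, an endosome motor that was 1.33-fold higher. On the second design Kif16b gave a log2 difference of 0.05 at this step, within the limit. Kif1c, a kinesin-3 cargo motor, read 246, 142, 81.3, 266 and 665, and was highest in the mix. Kif3c, another kinesin-2 motor subunit, read 382, 315, 138, 240 and 284, and was 2.27-fold lower in pachytene than in leptotene/zygotene cells. That is a log2 difference of -1.19, whereas the second design gave -0.27 for Kif3c, within the limit. Kif21a, a kinesin-4 that slows microtubule growth, read 403, 427, 55.2, 278 and 323 on its brightest second-design probe set. Its log2 difference between pachytene and leptotene/zygotene cells was -2.95 there, past 4-fold, against a bound of -0.93 on the first design, from which the gene was read and not called. For Kif13a, not measurable at this step on the first design, the brightest second-design probe set gave -1.76. The other members of the list, Kif1b, Kif13a, Kif13b, Kif21b and Kifc2, did not reach 4-fold in a comparison, and Kif1a was below the floor on the probe set read.

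Of the remaining members, Kif26a, a kinesin-11 without ATPase activity that is known from enteric nerve development, read 43.2, 203, 14.9, 42.6 and 42.1 (1447933_at, its 1 probe set). It passed the floor only in leptotene/zygotene cells, at least 4.32-fold above both spermatogonia and pachytene cells. Its relative Kif26b read 83.3, 139, 93.6, 113 and 189, with a similar direction at both steps and sizes of 1.67-fold and 1.48-fold. Kif12 read above the first design's floor only in pachytene cells (105), whereas on the second design its highest signal was in the mix (273, a log2 difference of -2.54 for whole testis against the mix), and Kif28 was below the floor in all groups.

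Across the whole family, 2 of 31 measured members rose at least 4-fold from spermatogonia to leptotene/zygotene cells (Kif26a and Kif27) and 0 fell, where 0.31% and 0.279% of all genes did. Of the same 31, 16 were higher and 3 lower (51.6% and 9.68%), against 24.1% and 22.2% of all genes. From leptotene/zygotene to pachytene cells 3 of 34 rose and 3 fell, a share near that of all genes (8.7% and 9.34%), with a median log2 difference of -0.01 that turned above 0 under every other scaling tried, up to 0.48. Between pachytene cells and whole testis 0 of 34 members reached 4-fold in either direction on the probe sets read for the genes, against 2.35% and 4.38% of all genes. Other probe sets passed it for Kif21a, at a log2 difference of -2.33 on its brightest second-design probe set, and for Kif3a, at 2.03 on a dimmer one. Of the 34, 9 were higher and 7 lower against 25.7% and 38.2%. With means over probe sets Kif5b and Kif3b at the pachytene step came to -1.93 and 1.91, just short of 4-fold. Kif9 has no probe set of the plain type, so it gave no value when only those were used. The calls of Kif3b and Kifc3 were also lost when the deposited values were not rescaled, at log2 differences of 1.67 and 1.69. With the floor at the 60th percentile the bounds of Kif7 and Kif26a at the pachytene step were -1.72 and -1.62, and the difference of Kifc3 was 1.44, all short of 4-fold; scaled to the shared probe sets, the bound of Kif26a was -1.94. These comparisons share arrays and are not independent of each other.

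Whole testis exceeded the mix by at least 4-fold for 7 of 35 measured members, against 7.22% of all genes, and was lower for 1 (Kif5a), against 5.7%. Beyond the limit, 13 were higher and 7 lower, against 29% and 30.6% of all genes. The 7 were Kif27, Kif3a and Kif9 among the cilium motors and Kif2c, Kif20a, Kif2a and Kif20b among the spindle motors. Kif20a was at least 5.76-fold, Kif2a 5.54-fold, and Kif20b 4.75-fold higher in whole testis. The 2 other Kif2a probe sets that could be measured gave log2 differences of 1.20 and 1.51, short of 4-fold. With means over probe sets Kif2a, Kif2c and Kif20b were not called. For Kif2c the 6.85-fold difference rests on a probe set whose name (1437611_x_at) marks probes that can match other transcripts, and 2 other Kif2c probe sets gave log2 differences of -0.58 and 0.16. Of the 37 members above the floor, 6 were highest in pachytene cells beyond the limit (16.2%, against 15.9% of all genes), 4 in leptotene/zygotene cells (10.8% against 4.62%), 2 in the mix (5.41% against 19.1%), 1 in whole testis (2.7% against 1.02%) and 0 in spermatogonia (against 6.68%).

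**Figure D4:**
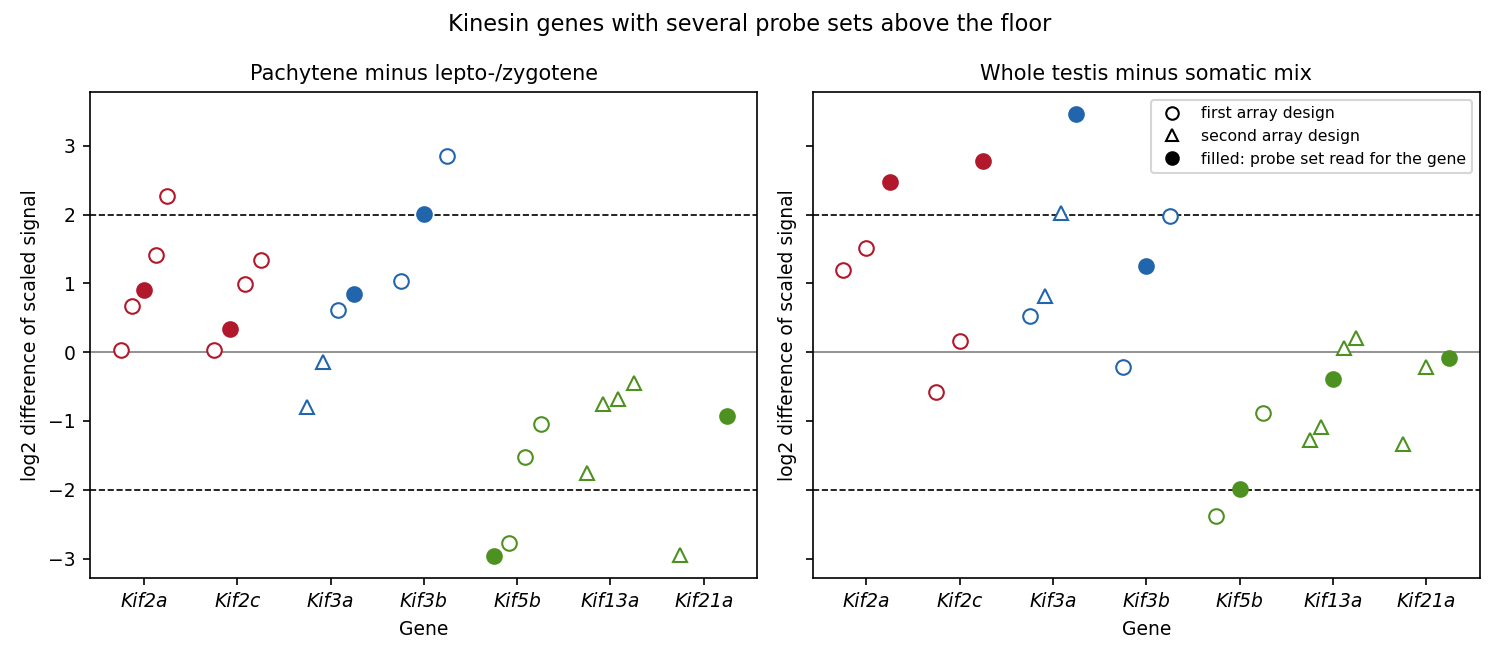
Log2 difference of scaled signal for every probe set of 7 kinesin genes that could be measured, for pachytene minus leptotene/zygotene cells and for whole testis minus the somatic mix; circles are the first array design, triangles the second, filled symbols are the probe set read for the gene, and dashed lines mark 4-fold. The Kif5b probe sets lie from -2.96 to -1.04 on the left, while those of Kif2c spread from -0.58 to 2.78 on the right.

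The 7 members read above the floor on both designs (Kif12, Kif13a, Kif16b, Kif1c, Kif21a, Kif3a and Kif3c) could be tested with 2 samples per group. A limma fit with the array design as a block, adjusted over 2606 genes, called Kif3a higher in whole testis than in the mix, by a log2 difference of 2.74 (SE 0.60, limma adjusted p = 0.0459, higher in 2 of 2 designs). That fit called 2.11% of the genes higher in this comparison and 1.88% lower. It read only the brightest probe set of each design, and dimmer Kif3a probe sets gave log2 differences of 0.53 and 0.82. In the other 3 comparisons limma called 0 members, against 2.88% of genes higher and 6.75% lower for pachytene against leptotene/zygotene, 0.23% and 0.998% for pachytene against whole testis, and 0% in each direction for leptotene/zygotene against spermatogonia. At an unadjusted p under 0.05 it gave 0 members for leptotene/zygotene against spermatogonia, 1 for pachytene against leptotene/zygotene, 0 for pachytene against whole testis and 2 for whole testis against the mix. The latter were Kif3a and Kif1c, which was lower in whole testis on both designs (log2 difference -1.50, SE 0.53, limma adjusted p = 0.193). The member at the pachytene step was Kif21a, with a log2 difference of -1.94 (SE 0.64, 95% interval from -3.39 to -0.49, limma adjusted p = 0.0964). Without the replicate block limma called 0 members in all 4 comparisons. Different probe sets read a gene on the 2 designs, so the spread behind these p-values includes differences between probe sets. For whole testis against the mix the error was 0.87 between different probe sets and 0.29 between the same ones. The labels do not say if samples 1 and 2 of a group were prepared apart, so the rest may be technical spread.

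Proteins that work with these motors gave a background for their values. Of the 13 light chains and cargo adaptors on the arrays, 12 were measured between leptotene/zygotene and pachytene cells, 4 were higher and 6 lower, and 1 rose; the all-gene shares were 30% higher and 44% lower. That was Mapk8ip2, a scaffold that binds kinesin light chains, with signals of 27.9, 97.9, 3354, 1541 and 58.5 and a 34.2-fold rise. Klc3, the light chain known from sperm tails, read 207, 289, 41.0, 118 and 89.1 and was at least 3.30-fold lower in pachytene cells. Trak2, which links kinesin-1 to mitochondria, was 5.41-fold lower in whole testis than in the mix. Of 13 spindle partners, 8 were higher and 0 lower in leptotene/zygotene cells than in spermatogonia, and 9 were higher and 0 lower in pachytene than in leptotene/zygotene cells. The shares over all genes were 24.1% higher and 22.2% lower at the first of these steps, and 30% and 44% at the second. Aurka, a kinase of spindle poles, rose 9.41-fold at the pachytene step, with signals of 313, 491, 4622, 1089 and 291. Prc1, which bundles midzone microtubules and binds Kif4, read 579, 757, 2498, 1412 and 364. Of the kinesins whose symbols lack the Kif stem, Stard9 fell at least 4.76-fold at that step and Cenpe, a kinetochore motor, had a log2 difference of -0.31.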

How the data were processed

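The deposited table gives 1 linear intensity for each probe set, which the authors made with GCOS 1, per the submitters' processing notes; the sources used here do not give the background correction or detection calls. Labelled cRNA was made by linear amplification with biotin, per the labels' protocols. The 10 arrays were scaled, within each of 2 designs, to a common 2% trimmed mean. The floor was the 90th percentile of 68 odorant, vomeronasal and taste receptor probe sets of design 1 (87.6) and, in design 2, the median signal (47.0). Design 1 was preferred: design 2 served only genes with no design 1 signal over the floor, and within a design the probe set of greatest mean log2 signal stood for the gene, so Kif21a and Kif13a were read on design 1 although design 2 holds probe sets of theirs further above its floor; probe sets naming several genes were left out (1 names Kif27 with another gene). Symbols come from GEO's platform annotation, updated through Entrez identifiers. Values were compared per array, and limma 3.58.1 in R 4.3.3 was run on the 2606 genes read on both designs; the scripts were tested on simulated data. Same-numbered samples share an array design, per the labels, so the number entered limma as a block. Full values are given for called members, for measured spindle and cilium motors (Kif2b and Kif15 included), and for Kif26a and Kif27; other members are examples with the largest differences. Members, lists, motifs and tests were chosen with earlier results of these data known.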

Additional observations from a re-analysis of the deposited data

How the results depend on the processing

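Of 313 alternative values, 169 were for single members. Of these, 120 stayed within the error of the reported value, 49 moved and 0 reversed the called difference. The other 144 were counts of members, of which 26 moved, and a count cannot show a reversal. The scaling moved the median of all genes by over 0.1 on the log2 scale: for pachytene against leptotene/zygotene from -0.22 to 0.17 (shared probe sets), for pachytene against whole testis from -0.18 to 0.17 (median scaling), for whole testis against the mix from -0.07 to 0.17 and for leptotene/zygotene against spermatogonia from 0.02 to 0.13 (both as deposited). The share of rises among all 4-fold calls moved with it, from 48.2% to 58.9% (quantile), 66.8% (median) and 69.9% (shared probe sets) at the pachytene step, from 34.9% to 66.1% (median), 45.3% (as deposited) and 56.1% (shared) against whole testis, and from 55.9% to 65.9% (as deposited) for whole testis against the mix. Rises from spermatogonia to leptotene/zygotene cells numbered 1 under median scaling (Kif26a), under shared-probe-set scaling and with the floor at the 60th percentile (Kif27), 0 with log2 of signal plus floor, and 0 to 2 when either design was left out. Rises at the pachytene step numbered 1 (Kif9) with deposited values and with log2 of signal plus floor, and 0 to 3 without a design, and falls there 1 to 3. Single calls lost at this step were Kif3b and Kif5b with means over probe sets, Kifc3, Kif7 and Kif26a with the floor at the 60th percentile, Kif9 with plain probe sets, and Kif26a with shared-probe-set scaling. Against whole testis, pachytene cells were 4-fold higher for 1 member (Kif9) under median and shared scaling and for 2 (Kif18b and Kif6) as deposited, and lower for 1 (Kif21a) with the floor at the 60th percentile, and 0 to 1 without a design. Whole testis was 4-fold above the mix for 4 members with means over probe sets, 3 with plain probe sets, and 3 to 5 without a design. It was 4-fold lower for 0 members under median, deposited, shared and log2 of signal plus floor settings. Under quantile normalization it was lower for 1, which was Kif5b and not Kif5a. The number was 2 with the floor at the 60th percentile, and 0 to 2 without a design. For whole testis against the mix limma called 0 members higher, Kif3a included, without the filter on low values and 0 without the replicate block. The cause of these shifts was not tested. Depth is unknown for arrays, and signals near the floor limit Kif11, Kif2b, Kif15 and Kifc2.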
